A study of Mus musculus with 6 samples.

Results

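The 52 genes described here encode the Wnt ligands, their Frizzled and Lrp receptors, the R-spondins with their Lgr receptors, the ubiquitin ligases that remove Frizzleds, the secreted inhibitors, and 3 intracellular readouts of the pathway. They were taken by gene symbol from the 23420 genes of each count table. The rule used the *Wnt*, *Fzd*, *Sfrp*, *Dkk*, *Lgr* and *Rspo* families plus *Axin2*, *Lef1*, *Tcf7*, *Lrp5*, *Lrp6*, *Wif1*, *Znrf3* and *Rnf43*. The rule itself used no measured value, but it was chosen with earlier results of these data known. RNA was sequenced at 8 pm on day 4 of pregnancy from the luminal layer of the mouse uterus, taken by laser microdissection, and from blastocysts flushed out of the uterine horns. Control females were homozygous for a floxed *Lif* allele (Lif-floxed/floxed) and received PBS. *Lif* eKO females carried the same floxed alleles with a Cre recombinase driven by the *Ltf* promoter, which acts in the uterine epithelium (Lif-floxed/floxed Ltf-Cre/+), and also received PBS. The last group was *Lif* eKO females that were given the missing cytokine as recombinant protein (rLif). Each received 20 µg per injection, once at 10 am and once at 6 pm, and was killed 2 h after the last one. The labels give the embryos of all groups as Lif-floxed/+, so that the blastocyst groups are named for the mother and not for the embryo.

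Each of the 6 groups was 1 library, made from RNA pooled over animals or from pooled blastocysts. No spread between animals could be estimated, no p-value is given, and every difference below is a difference between single libraries with no replicate check. Each ratio of TMM-scaled counts (trimmed mean of M-values, scaled within 1 tissue) carries an exact 95% interval that covers counting error only. A gene is called higher or lower where that whole interval lies beyond a log2 ratio of 1, that is beyond 2-fold. Levels of different genes are compared only as CPM per kilobase of exon, where CPM is counts per 1000000 scaled counts, and the tissues were scaled separately. In such bulk libraries, fewer cells of a type and less RNA per cell cannot be told apart.

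Wnt proteins are secreted lipid-modified ligands that bind a Frizzled receptor together with the co-receptors Lrp5 or Lrp6, which stabilizes beta-catenin and lets it act with the DNA-binding factors Tcf7 and Lef1. R-spondins, bound by Lgr receptors, keep the ligases Rnf43 and Znrf3 from clearing Frizzleds off the membrane, while Dkk, Sfrp and Wif proteins block the signal outside the cell. In the mouse uterus, Wnt ligands of the luminal epithelium and the underlying stroma are known for their part in gland formation and in the response to the blastocyst, and in the blastocyst Wnt signaling is linked to pluripotency.

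Promoter sequence was available for 34 of the 52 genes, as 42 promoters of 300 bases each, from 250 before to 50 after an annotated start (RefSeq, GRCm38.p6). The genes without an entry were *Dkk3*, *Dkk4*, *Fzd2*, *Fzd3*, *Fzd6*, *Fzd8*, *Lgr5*, *Lrp5*, *Lrp6*, *Rspo2*, *Rspo3*, *Sfrp1*, *Sfrp4*, *Wnt10a*, *Wnt5a*, *Wnt7b*, *Wnt8a* and *Znrf3*. The promoters were searched on both strands for the core of a TCF/LEF site (CTTTGAT or CTTTGAA) and for the spaced palindrome bound by STAT factors (TTCNNNGAA), since Stat3 is the factor that Lif activates. Printed here are the promoters of genes that were lower in the luminal *Lif* eKO library and higher again with rLif (*Wnt16*, and both *Wnt5b* starts that hold a motif), followed by a receptor gene with the reverse pattern (*Lgr4*) and a ligand gene that was higher in *Lif* eKO (*Wnt9a*). Capitals mark the motif found, and a sequence without capitals held neither.
Wnt16: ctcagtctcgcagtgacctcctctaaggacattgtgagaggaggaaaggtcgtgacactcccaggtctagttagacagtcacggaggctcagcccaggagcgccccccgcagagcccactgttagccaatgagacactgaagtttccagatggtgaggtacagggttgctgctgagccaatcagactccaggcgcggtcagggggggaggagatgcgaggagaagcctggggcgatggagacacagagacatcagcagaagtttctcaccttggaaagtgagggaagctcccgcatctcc
Wnt5b, start with the STAT-type match: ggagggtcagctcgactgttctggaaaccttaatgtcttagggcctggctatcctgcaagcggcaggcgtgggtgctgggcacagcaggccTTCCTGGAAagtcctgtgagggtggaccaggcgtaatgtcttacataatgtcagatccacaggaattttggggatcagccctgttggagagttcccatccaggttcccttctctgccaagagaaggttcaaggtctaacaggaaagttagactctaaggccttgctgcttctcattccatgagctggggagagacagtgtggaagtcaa
Wnt5b, start with the TCF/LEF core: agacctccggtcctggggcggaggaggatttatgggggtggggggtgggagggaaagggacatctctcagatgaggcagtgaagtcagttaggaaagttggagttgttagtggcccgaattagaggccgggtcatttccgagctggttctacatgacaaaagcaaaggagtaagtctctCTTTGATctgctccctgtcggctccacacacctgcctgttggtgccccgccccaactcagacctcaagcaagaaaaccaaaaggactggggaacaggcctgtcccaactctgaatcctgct
Lgr4: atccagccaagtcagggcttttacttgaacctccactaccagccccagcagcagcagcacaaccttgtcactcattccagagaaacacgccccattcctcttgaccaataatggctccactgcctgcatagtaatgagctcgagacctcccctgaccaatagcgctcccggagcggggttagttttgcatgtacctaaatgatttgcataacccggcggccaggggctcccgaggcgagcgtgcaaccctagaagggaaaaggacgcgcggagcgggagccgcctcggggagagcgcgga
Wnt9a: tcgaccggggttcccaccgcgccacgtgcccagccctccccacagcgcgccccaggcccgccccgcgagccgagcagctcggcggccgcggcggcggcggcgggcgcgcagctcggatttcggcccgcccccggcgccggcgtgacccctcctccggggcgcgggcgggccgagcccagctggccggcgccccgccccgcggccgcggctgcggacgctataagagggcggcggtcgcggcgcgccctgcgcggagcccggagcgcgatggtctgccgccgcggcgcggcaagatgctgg
The *Wnt16* window is chr6:22287977-22288276 on the plus strand, and the *Lgr4* window is chr2:109917397-109917696 on the plus strand. The *Wnt5b* gene lies on the minus strand, and its printed windows are chr6:119467162-119467461, with the STAT-type sequence TTCCTGGAA beginning at position -159 from the start, and chr6:119449337-119449636, with CTTTGAT at position -71. A further *Wnt5b* window, chr6:119544298-119544597, held neither motif and is not printed. The *Wnt9a* window is chr11:59306680-59306979 on the plus strand. A TCF/LEF core was found in 3 of the 42 promoters (7.14%; in *Dkk1*, *Wnt11* and *Wnt5b*) and in 2842 of all 32851 promoters in the reference (8.65%). The STAT-type sequence was found in 1 of the 42 (2.38%), against 2726 of all promoters (8.3%). The 42 promoters had a median GC content of 67.0% and a median of 24 CpG dinucleotides, where all promoters had medians of 52.7% and 7. These are matches of letters in a short window and show neither a bound site nor its absence elsewhere.

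The luminal libraries held 23850565, 28460465 and 27809527 counts and the blastocyst libraries held 18996158, 19638852 and 19417359, in the order control, *Lif* eKO and *Lif* eKO with rLif, which is the order used for all values below. *Lif* itself (chr11:4257568-4272514) had 0, 28 and 0 counts in the luminal libraries, so that the deleted gene was counted only in the library labelled *Lif* eKO, at 0.975 CPM. Taken alone this goes against that label. Reads from the part of the gene that Cre leaves in place, or from stroma, where the deletion does not reach, would still be counted. The paper places *Lif* before embryo attachment in the glands, so the 0 counts of the luminal control cannot check the label either. The source of the 28 counts was not tested, and the direction of every luminal difference rests on the labels. In the blastocyst libraries *Lif* had 1447, 1736 and 1250 counts. All 10 epithelial markers were counted in every luminal library, with summed levels of 8168, 9467 and 7777. The 12 stromal markers were counted in every luminal library too, at summed levels of 328, 439 and 322, and the summed level of 7 smooth muscle markers was 34.7, 23.7 and 14.9. Of 9 gland markers, 7 were in the tables, with summed luminal levels of 390.1, 563 and 834. *Sox17* alone had 27110, 48998 and 65587 of their 30083, 50168 and 66974 counts. The gland-defining *Foxa2* had 3, 0 and 10 counts. Trophectoderm markers summed to between 971 and 1114 in the blastocysts and to between 2.11 and 5.27 in the luminal layer. Immune markers summed to 907, 807 and 851 in the luminal layer and to 63.3, 115 and 22.9 in the blastocysts.

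Of the 52 genes, 39 reached 10 summed counts in the luminal layer and 34 did so in the blastocysts, 32 of them in both. *Wnt7a*, *Wnt10a*, *Wnt16*, *Lgr5*, *Lgr6*, *Dkk2* and *Sfrp4* reached it only in the luminal layer, and *Wnt3a* and *Dkk1* only in the blastocysts. The other 11, *Wnt1*, *Wnt3*, *Wnt8a*, *Wnt8b*, *Wnt9b*, *Wnt10b*, *Rspo2*, *Rspo4*, *Dkk4*, *Sfrp5* and *Wif1*, reached it in neither. A count of 0 allows up to 3 counts, which is 0.104 to 0.119 CPM in the luminal libraries and 0.153 to 0.157 in the blastocyst libraries. A level of at least 1 CPM per kilobase was reached by 27, 24 and 26 of the genes in the luminal libraries and by 20, 17 and 17 in the blastocyst libraries.

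**Figure D1:**
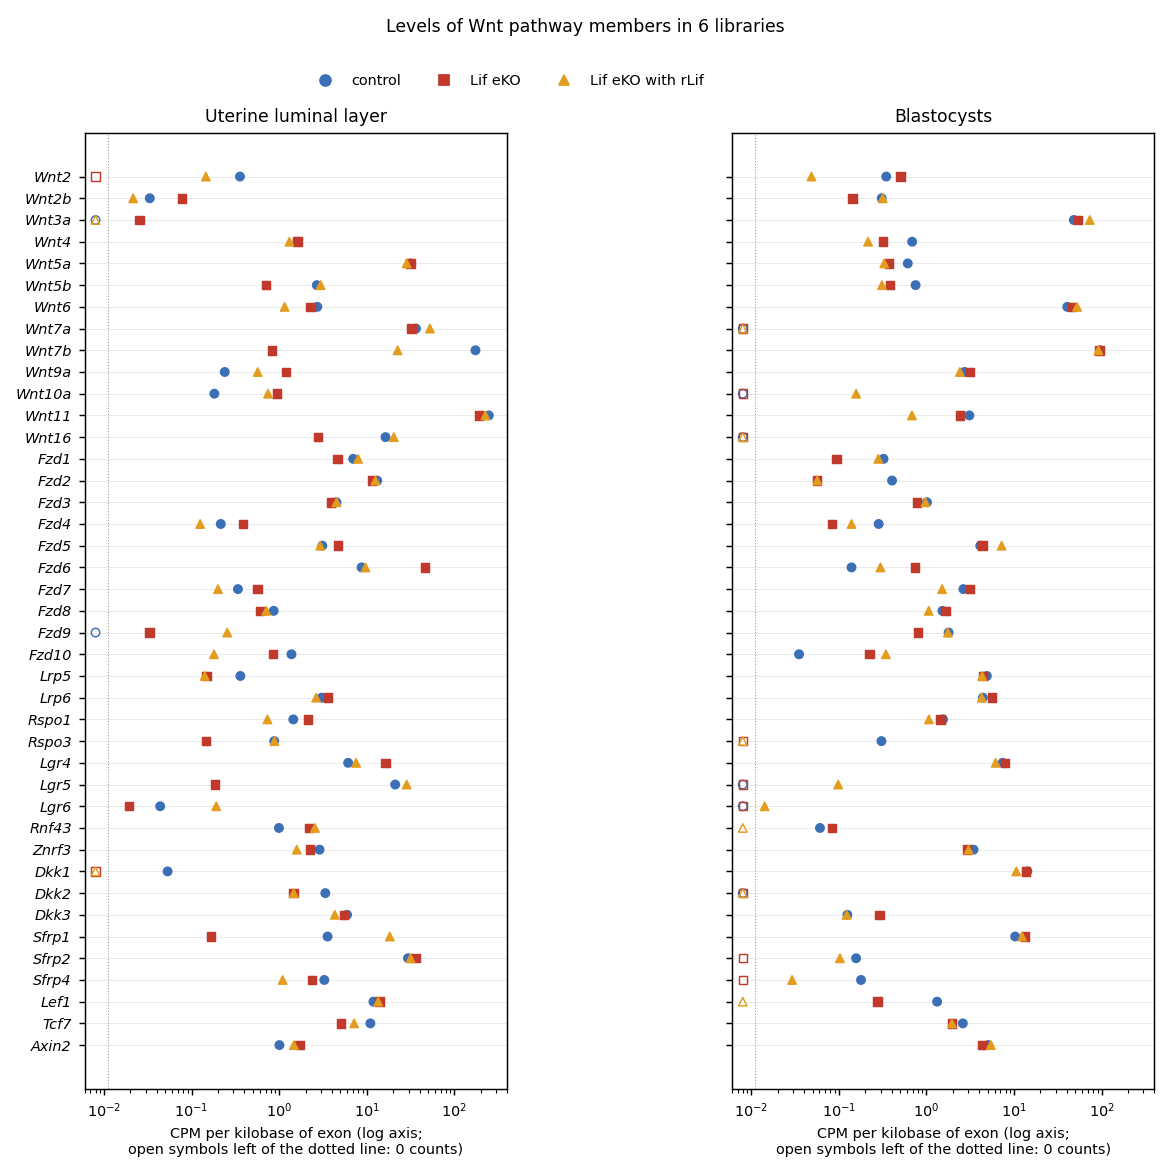
Level of each of the 41 genes that reached 10 summed counts in a tissue, in CPM per kilobase of exon on a log axis, with 1 point for each library (no error bar, since each group is 1 library). In the luminal layer *Wnt7b*, *Lgr5* and *Sfrp1* show a *Lif* eKO point far to the left of the other points and *Fzd6* one far to the right, while in the blastocysts the points of the strongest ligands, *Wnt7b*, *Wnt3a* and *Wnt6*, lie close together.

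The luminal layer and the blastocysts differed in which ligands they held. In the luminal control *Wnt11* was the highest ligand, at a level of 247, followed by *Wnt7b* at 174, *Wnt7a* at 36.4, *Wnt5a* at 31.7 and *Wnt16* at 16.3. In the control blastocysts *Wnt7b* led at 95.5, followed by *Wnt3a* at 48.2 and *Wnt6* at 40.5. *Wnt3a*, a ligand that signals through beta-catenin, had 2526, 2886 and 3913 counts in the blastocysts and 0, 2 and 0 in the luminal layer. *Wnt7a* had the reverse distribution, with 2916, 2968 and 4338 luminal counts and 0 in all 3 blastocyst libraries. The inhibitors divided in the same manner. *Sfrp2*, a decoy that binds Wnt, made up most of the summed luminal inhibitor level (64.6%, 78.9% and 55.6%) and had at most 6 counts in a blastocyst library. *Dkk1*, which blocks the Lrp co-receptors, had 605, 597 and 461 counts in the blastocysts and 3, 0 and 0 in the luminal layer. No test was made between the tissues, which were scaled separately and prepared from different kinds of sample.

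The comparison of luminal *Lif* eKO with control asks which of these genes differ in the layer that meets the blastocyst when its Lif supply is removed. Of the 39 tested, 4 were called higher (10.3%) and 7 lower (17.9%), where over all 15694 genes tested 8.08% were called higher and 9.15% lower. The ligands *Wnt7b*, *Wnt16*, *Wnt5b* and *Wnt2*, the R-spondin *Rspo3*, the receptor *Lgr5* and the inhibitor *Sfrp1* were lower. The ligands *Wnt9a* and *Wnt10a* and the receptors *Fzd6* and *Lgr4* were higher. The median log2 ratio over the 39 was -0.20, beside 0.0062 over all genes tested.

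*Wnt7b* (chr15:85535437-85581821), a ligand of epithelia, had 19376, 105 and 2580 luminal counts. Its level was thus 174 in control, 0.828 in *Lif* eKO and 22.4 with rLif. The *Lif* eKO library was 210-fold lower than control, a log2 ratio of -7.71 (interval -8.00 to -7.44). With rLif it was 27.1-fold higher than in *Lif* eKO (log2 4.76, interval 4.48 to 5.06) and still 7.74-fold lower than in control (log2 -2.95, interval -3.01 to -2.89). The exons of *Wnt7b* overlap those of an antisense gene, *AU022754*, which had 25, 10 and 7 counts. The strand setting of the counting was not stated, so reads of the overlap cannot be assigned to either gene.

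*Wnt16* (chr6:22288227-22298522), whose promoter is printed above, had 687, 132 and 880 luminal counts. It was 5.92-fold lower in *Lif* eKO (log2 -2.57, interval -2.85 to -2.30) and 7.35-fold higher with rLif than without (log2 2.88, interval 2.61 to 3.15). The rLif library lay at a log2 ratio of 0.31 from control, within 2-fold. *Wnt5b*, a ligand of the beta-catenin-independent branch, had 180, 54 and 205 counts. Its log2 ratio was -1.92 (interval -2.39 to -1.48) for *Lif* eKO against control and 2.07 (interval 1.63 to 2.53) for rLif against *Lif* eKO. *Wnt2*, a ligand known from the stroma, had 19, 0 and 8 counts and was at least 7.20-fold lower in *Lif* eKO than in control with its 0 put at the floor of 3 counts. The exact interval, which adds the counting error of the 19, ended at a log2 ratio of -2.41. The control and rLif libraries lay together for *Wnt16* and *Wnt5b*, with the *Lif* eKO library below both.

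2 weakly counted ligands went the other way. *Wnt9a* had 20, 114 and 49 luminal counts, 5.01-fold higher in *Lif* eKO (log2 2.33, interval 1.63 to 3.09). *Wnt10a* had 9, 53 and 38 counts, 5.18-fold higher (log2 2.37, interval 1.34 to 3.58). Neither was called between rLif and *Lif* eKO, where the log2 ratios were -1.08 (interval -1.59 to -0.58) and -0.34 (interval -0.98 to 0.29). Their levels stayed at or below 1.20 in every luminal library.

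None of the remaining luminal ligands was called in *Lif* eKO against control. *Wnt11* (chr7:98838845-98854747), a ligand linked to cell movement and polarity, had 17361, 15209 and 16354 counts, with a log2 ratio of -0.38 (interval -0.41 to -0.35) for *Lif* eKO against control. *Wnt5a* had 3495, 3960 and 3243 counts, with a log2 ratio of -0.0057 (interval -0.072 to 0.060). *Wnt7a*, a ligand of the luminal epithelium known for its part in patterning the uterus, was at -0.16 in *Lif* eKO against control and at 0.53 with rLif against control. *Wnt4*, which is best known from the decidualizing stroma, had 156, 177 and 130 counts, and *Wnt6* had 142, 135 and 62. *Wnt7a* and *Wnt5a*, neighbours in the order of control, had levels of 36.4 and 31.7 in control, 32.5 and 31.5 in *Lif* eKO and 52.5 and 28.5 with rLif.

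The summed level of the 19 ligands was 513 in luminal control, 265 in *Lif* eKO and 356 with rLif. *Wnt7b* made up 33.9%, 0.313% and 6.31% of these sums. *Wnt11* made up 48.1%, 71.8% and 63.3%, at a level that was itself 247, 189.95 and 225. In the same libraries the sum over the 10 Frizzleds was 39.2, 73.3 and 39.05. Without *Wnt7b* the ligand sum was 339, 264 and 334, and without *Fzd6* the Frizzled sum was 30.5, 27.1 and 29.4, so the higher receptor sum of *Lif* eKO was that of *Fzd6*.

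**Figure D2:**
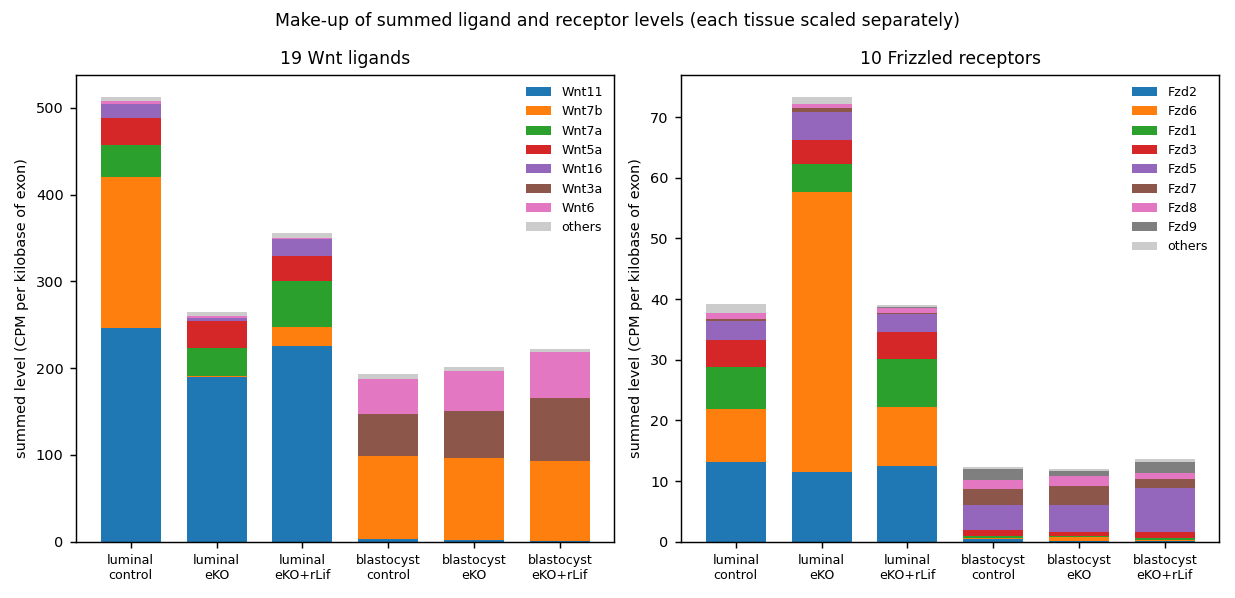
Stacked levels (CPM per kilobase of exon) of the 19 ligands at left and the 10 Frizzled receptors at right, with 1 bar for each library and no error bars. The *Wnt7b* block is 174 high in luminal control, 0.828 in *Lif* eKO and 22.4 with rLif, while the *Fzd6* block is 8.71, 46.3 and 9.64, and *Wnt7b*, *Wnt3a* and *Wnt6* fill most of each blastocyst bar.

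Among the receptors, *Fzd6* (chr15:39006280-39038190), a Frizzled known mainly from planar cell polarity, had 910, 5499 and 1039 luminal counts. It was 5.31-fold higher in *Lif* eKO than in control (log2 2.41, interval 2.31 to 2.51) and 4.80-fold lower with rLif than without (log2 -2.26, interval -2.36 to -2.17). The rLif library was at 0.15 (interval 0.017 to 0.28) from control. Its share of the summed Frizzled level was 22.2%, 63.1% and 24.7%. *Fzd2*, the highest Frizzled in control, had 1202, 1190 and 1184 counts, at levels of 13.1, 11.4 and 12.5. *Fzd3* had 1447, 1427 and 1496 counts. These values placed *Fzd6* above *Fzd2* in the *Lif* eKO library and below it in the other two.

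No other Frizzled was called in luminal *Lif* eKO against control. *Fzd1* had 772, 578 and 907 counts, *Fzd5* had 541, 936 and 528, *Fzd7* had 41, 78 and 25, *Fzd8* had 73, 58 and 62, and *Fzd4* had 20, 41 and 12. *Fzd10* had 104, 73 and 14, and was called lower with rLif than in *Lif* eKO (log2 -2.24, interval -3.18 to -1.40) and than in control (log2 -2.94, interval -3.86 to -2.13). *Fzd9* had 0, 2 and 14, at least 4.53-fold higher with rLif than in control by the floor of 3 counts, with an exact interval that began at a log2 ratio of 1.69. The co-receptor gene *Lrp6* had 721, 975 and 643 counts and *Lrp5* had 47, 22 and 19, neither of them called in a luminal comparison.

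The R-spondin receptors showed opposite patterns. *Lgr5* (chr10:115450314-115587780), a receptor used as a marker of epithelial stem cells, had 2505, 25 and 3494 luminal counts, at levels of 21.1, 0.185 and 28.5. It was 114-fold lower in *Lif* eKO than in control (log2 -6.83, interval -7.46 to -6.27) and 154-fold higher with rLif than without (log2 7.27, interval 6.70 to 7.90). *Lgr4*, a relative with a broad expression, had 781, 2371 and 993 counts, at levels of 6.11, 16.3 and 7.54. It was 2.67-fold higher in *Lif* eKO (log2 1.42, interval 1.30 to 1.53) and 2.16-fold lower with rLif (log2 -1.11, interval -1.22 to -1.01), although neither difference passed the edgeR exact test at an assumed dispersion of 0.1. *Lgr5* was thus 77.4%, 1.12% and 78.7% of the summed Lgr level, and *Lgr4* was 22.5%, 98.8% and 20.8%. *Lgr6* had 4, 2 and 18 counts, called higher with rLif than in *Lif* eKO (log2 3.31, interval 1.25 to 6.46).

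Of the R-spondins themselves, *Rspo3* had 53, 10 and 55 luminal counts, 6.03-fold lower in *Lif* eKO (log2 -2.59, interval -3.73 to -1.60) and 6.07-fold higher with rLif (log2 2.60, interval 1.61 to 3.74). *Rspo1* had 67, 112 and 35 counts and was not called in any luminal comparison. *Rspo2* had 0 counts in all 6 libraries. The ligase *Rnf43* had 108, 270 and 287 counts and was called only with rLif against control (log2 1.37, interval 1.04 to 1.70). *Znrf3*, the related ligase, had 459, 407 and 260. *Rnf43* was higher in both *Lif* eKO libraries than in control, with a log2 ratio of 1.14 (interval 0.81 to 1.47) for the untreated one.

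Among the inhibitors, *Sfrp1* (chr8:23411502-23449632), a secreted Wnt decoy, had 393, 21 and 2081 luminal counts. It was 21.3-fold lower in *Lif* eKO than in control (log2 -4.41, interval -5.12 to -3.78) and 109-fold higher with rLif than without (log2 6.77, interval 6.16 to 7.47). With rLif it was also 5.13-fold higher than in control (log2 2.36, interval 2.20 to 2.52). Its share of the summed inhibitor level was therefore 7.79%, 0.369% and 32.3%. *Sfrp2* had 1492, 2058 and 1643 counts, with a log2 ratio of 0.28 (interval 0.18 to 0.38) for *Lif* eKO against control. *Dkk3* had 504, 532 and 377 counts. *Dkk2* had 314, 155 and 141, with a log2 ratio of -1.20 (interval -1.49 to -0.92) in *Lif* eKO against control, which was not called. *Sfrp4* had 145, 119 and 50 and was called lower with rLif than in control (log2 -1.58, interval -2.07 to -1.11).

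Of the intracellular members, *Lef1* had 1107, 1482 and 1293 luminal counts, *Tcf7* had 620, 326 and 417, and *Axin2*, a target and feedback inhibitor of beta-catenin signaling, had 108, 207 and 163. For *Lif* eKO against control their log2 ratios were 0.23 (interval 0.12 to 0.35), -1.11 (interval -1.31 to -0.92) and 0.75 (interval 0.41 to 1.10), and none was called. With rLif against *Lif* eKO, *Tcf7* was at 0.50 (interval 0.28 to 0.71) and *Axin2* at -0.20 (interval -0.51 to 0.10). *Tcf7* was thus lowest in the *Lif* eKO library, while *Axin2* could not be told apart between the libraries of *Lif* eKO females by counting error alone.

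**Figure D3:**
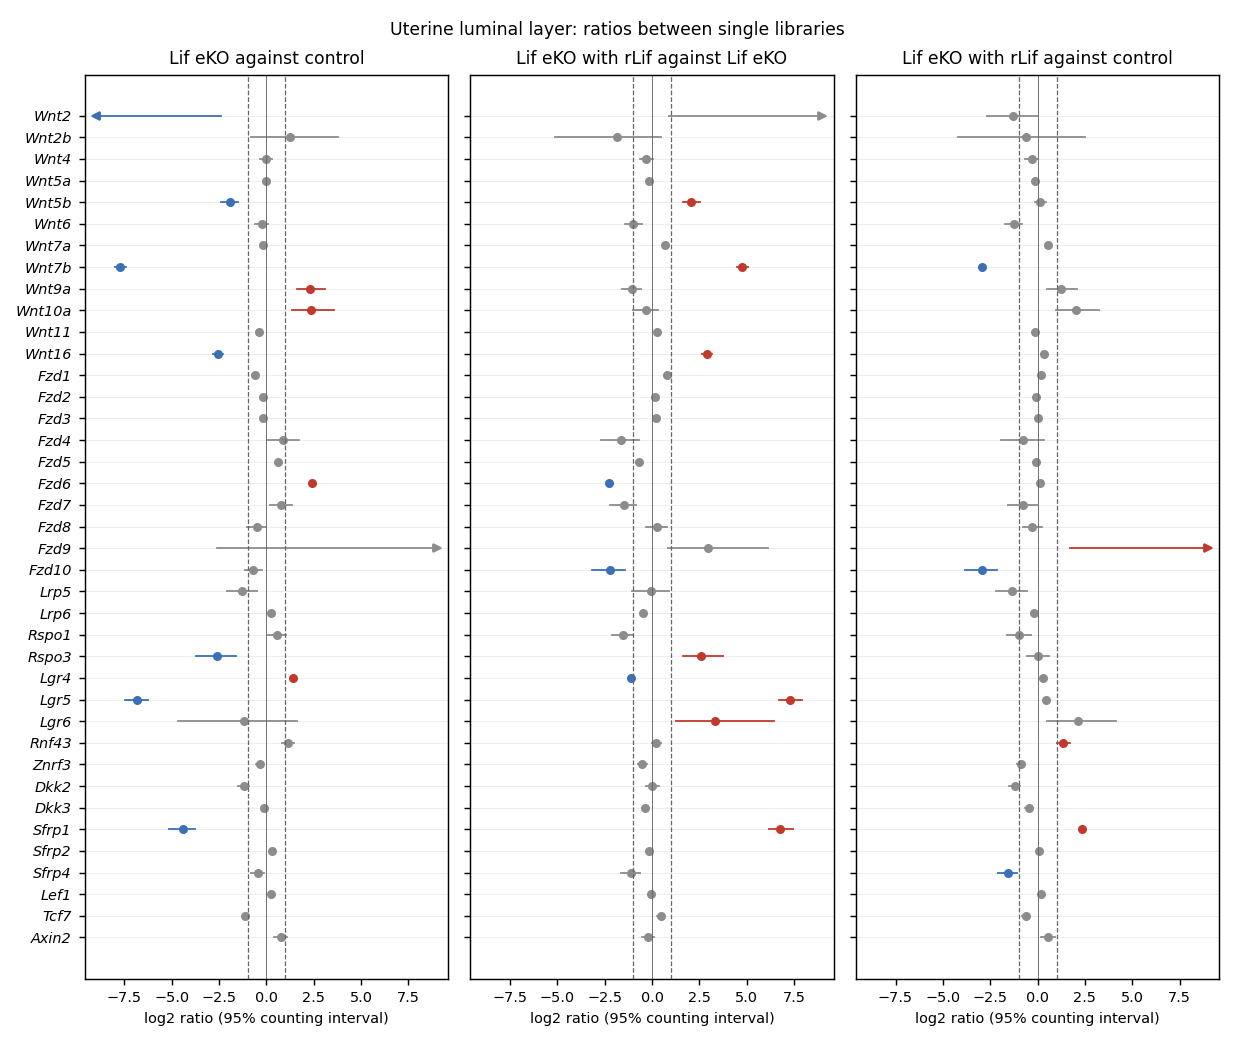
Log2 ratios between luminal libraries for the 39 genes tested, 1 panel for each comparison, with exact 95% counting intervals as horizontal lines, dashed lines at log2 ratios of -1 and 1, red for called higher, blue for called lower and gray for not called. An arrow marks an interval left without an end by a count of 0. *Wnt7b*, *Lgr5* and *Sfrp1* stand at -7.71, -6.83 and -4.41 in the first panel and at 4.76, 7.27 and 6.77 in the second.

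For rLif against *Lif* eKO, 7 of the 39 were called higher (17.9%) and 3 lower (7.69%), beside 7.88% and 7.77% of all genes tested. The 7 were *Wnt7b*, *Wnt16*, *Wnt5b*, *Rspo3*, *Lgr5*, *Lgr6* and *Sfrp1*, and the 3 were *Fzd6*, *Lgr4* and *Fzd10*. For rLif against control, 3 were called higher (7.69%; *Sfrp1*, *Rnf43* and *Fzd9*) and 3 lower (7.69%; *Wnt7b*, *Sfrp4* and *Fzd10*), beside 4.12% and 5.04% of all genes. The median log2 ratios over the 39 were -0.070 and -0.080, beside -0.0072 and 0.013 over all genes. The 3 luminal comparisons share their libraries, and the *Lif* eKO library enters both of the first 2 in opposite places.

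*Sfrp4* and *Fzd10* were low with rLif beside smooth muscle markers. In rLif against control, 4 of the 6 smooth muscle markers tested were called lower and none higher, with *Actg2* at 142, 7 and 1 counts, while none of the 12 stromal markers was called. In *Lif* eKO against control, 2 smooth muscle markers were called lower and 1 stromal marker higher, and the log2 ratio of the summed stromal level was 0.42. Of the 7 gland markers, *Prss28* (55, 13 and 142 counts) and *Ltf* (2745, 992 and 851) were called lower in *Lif* eKO against control, and *Prss28*, *Prss29* (123, 111 and 315) and *Foxa2* higher with rLif against *Lif* eKO. *Sox17*, which held most of the gland marker counts, had 27110, 48998 and 65587. The log2 ratio of the summed gland level, largely that of *Sox17*, was 0.53 in *Lif* eKO against control and 0.57 with rLif against *Lif* eKO. Over all genes 8.08% were called higher and 9.15% lower in *Lif* eKO against control. With rLif against *Lif* eKO these shares were 7.88% and 7.77%, and with rLif against control 4.12% and 5.04%. The part of smooth muscle, stroma and glands in these differences was not tested. Both *Lif* eKO groups carried the *Ltf*-Cre driver and control did not, and the part of the driver in the *Ltf* counts was not tested.

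The other genes of the pathway were described from 4 lists, chosen with earlier results of these data known. Their counts beside the shares of all genes are therefore description only. Of the 11 secretion and extracellular genes tested in the luminal layer, 1 was called higher and 3 lower in *Lif* eKO against control, and 4 higher and 2 lower with rLif against *Lif* eKO, beside the 8.08% and 9.15%, then 7.88% and 7.77%, of all genes tested. Both Kremen genes, receptors of the Dkk proteins, were called, in opposite directions. *Kremen1* had 1604, 335 and 1000 counts (log2 -2.45, then 1.72) and *Kremen2* had 38, 158 and 37 (log2 1.87, then -1.95). *Notum*, an enzyme that inactivates Wnt by removing its lipid, had 206, 63 and 167 counts, called lower in *Lif* eKO (log2 -1.90) and higher with rLif (log2 1.55). *Wls*, the carrier that takes Wnt to the cell surface, had 12232, 7656 and 16292 counts. *Sostdc1*, a secreted antagonist of Bmp and Wnt that belongs to the list but falls outside the limit of 6 names and was named after its values were seen, had 248, 7 and 164 counts, at log2 ratios of -5.33 and 4.69. The list's median log2 ratio in *Lif* eKO against control was -0.50, beside 0.0062 over all genes.

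Of 12 alternative receptors and polarity genes, 1 was called lower in luminal *Lif* eKO against control and none higher, beside 9.15% and 8.08% of all genes. It was *Celsr3*, an atypical cadherin of the polarity pathway, with 133, 10 and 174 counts, at log2 ratios of -3.92 (interval -5.01 to -3.00) and, with rLif against *Lif* eKO, 4.26 (interval 3.35 to 5.35). Of 25 cytoplasmic and nuclear genes, 4 were called higher and 1 lower in *Lif* eKO against control, beside the same 8.08% and 9.15% of all genes. *Gsk3b*, a kinase that marks beta-catenin for destruction, had 2042, 5564 and 2924 counts (log2 1.26), and *Tcf7l2*, a partner of beta-catenin, had 161, 644 and 342 (log2 1.81). *Tle2* had 42, 151 and 69, *Bcl9l* had 42, 137 and 59, and *Apc2*, the lower one, had 10, 0 and 0. The median over the 25 was -0.030.

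Of the 12 target and feedback genes tested, 2 were called higher and 5 lower in luminal *Lif* eKO against control, beside 8.08% and 9.15% of all genes, with a median log2 ratio of -0.38 beside 0.0062. The higher ones were *Bambi*, a decoy receptor of the TGF-beta family, with 8933, 52469 and 7893 counts (log2 2.37), and *Cd44*, a hyaluronan receptor, with 648, 1956 and 689 (log2 1.41). The lower ones were *Myc* with 4626, 1683 and 3056 counts (log2 -1.64), *Apcdd1* with 2147, 863 and 1109 (log2 -1.50), *Nkd2* with 1732, 681 and 1081 (log2 -1.53), *Ascl2* with 479, 73 and 123 (log2 -2.90), and *Notum* as given above. Each of these genes is also controlled by other pathways. With rLif against *Lif* eKO, 2 of the 12 were called higher and 3 lower, beside 7.88% and 7.77% of all genes.

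In the blastocysts the comparison of *Lif* eKO with control asks whether embryos that developed in a uterus lacking epithelial Lif differ. Of the 34 genes tested, 1 was called higher (2.94%) and 3 lower (8.82%), beside 1.29% and 1.86% of the 14873 genes tested. The higher gene was *Fzd6* and the lower ones were *Lef1*, *Fzd2* and *Rspo3*. For rLif against *Lif* eKO none was called higher and 3 lower (8.82%; *Lef1*, *Wnt2* and *Wnt11*), beside 0.914% and 2.83%. For rLif against control 1 was called higher (2.94%; *Fzd10*) and 4 lower (11.8%; *Lef1*, *Fzd2*, *Rspo3* and *Wnt11*), beside 0.948% and 3.99%. The median log2 ratios over the 34 were -0.12, -0.12 and -0.23, beside -0.0029, -0.0095 and -0.013 over all genes, and the second is -0.077 with genes at 0 counts put at their bound. None of the members called in the blastocysts had more than 164 counts in a library, and the 3 comparisons again share their libraries. Apart from *Lef1* with rLif against control, none of these calls passed the edgeR exact test at an assumed dispersion of 0.1.

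The strongest ligands of the blastocyst were within 2-fold across the groups. *Wnt7b* had 8040, 8117 and 7881 counts, with a log2 ratio of -0.022 (interval -0.067 to 0.022) for *Lif* eKO against control and -0.035 (interval -0.079 to 0.010) for rLif against *Lif* eKO. The same gene differed by 210-fold between the luminal libraries of these groups. *Wnt6* had 1597, 1864 and 2107 counts and *Wnt3a* had 2526, 2886 and 3913. With rLif against control *Wnt3a* was at a log2 ratio of 0.60 (interval 0.53 to 0.68) and *Wnt6* at 0.37 (interval 0.28 to 0.47), both above 0 by counting error alone and below the limit of the call. *Wnt9a* had 172, 204 and 155 counts. The summed ligand level was 193, 201 and 222, of which *Wnt7b* was 49.5%, 46.7% and 41.3% and *Wnt3a* was 25.0%, 26.7% and 32.9%.

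*Wnt11* was the best counted blastocyst ligand with a called difference. It had 164, 131 and 37 counts, lower with rLif than in *Lif* eKO (log2 -1.82, interval -2.38 to -1.28) and than in control (log2 -2.18, interval -2.73 to -1.65). *Wnt2* had 14, 21 and 2 counts, with a log2 ratio of -3.38 (interval -6.52 to -1.35) for rLif against *Lif* eKO. The other ligands had few reads, with *Wnt5a* at 51, 32 and 28 counts, *Wnt4* at 50, 24 and 16, *Wnt5b* at 38, 20 and 16 and *Wnt2b* at 21, 10 and 22. None of these was called.

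*Lef1* (chr3:131110297-131224357) had 93, 20 and 0 blastocyst counts. It was 4.77-fold lower in *Lif* eKO than in control (log2 -2.25, interval -3.03 to -1.54), and with rLif, its 0 put at the floor of 3 counts, at least 6.63-fold lower than in *Lif* eKO and at least 31.6-fold lower than in control. The exact intervals ended at log2 ratios of -2.30 and -4.66. *Tcf7* had 111, 86 and 85 counts and *Axin2* had 413, 365 and 449, neither of them called. *Fzd2* had 28, 4 and 4 counts, 7.18-fold lower in *Lif* eKO (log2 -2.84, interval -4.82 to -1.33). *Rspo3* had 14, 0 and 0, at least 4.78-fold lower in *Lif* eKO and at least 4.76-fold lower with rLif than in control by the same floor, with exact intervals that ended at -1.77 and -1.76.

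The uterine luminal libraries held 1107 to 1482 counts of *Lef1*, 1184 to 1202 of *Fzd2* and 10 to 55 of *Rspo3*. The stromal markers of the blastocyst libraries did not move as one. In *Lif* eKO against control 3 of 11 stromal markers tested were called lower and none higher (*Vim*, *Col1a2* and *Thy1*), beside 1.86% of all genes called lower. With rLif against control 5 were lower (*Hoxa10*, *Hoxa11*, *Col1a2*, *Col3a1* and *Dcn*), beside 3.99%. With rLif against *Lif* eKO none was lower and 1 was higher (*Thy1*, with 12, 0 and 14 counts), beside 2.83% and 0.914%. *Hoxa10* had 48, 17 and 6 counts and *Dcn* had 164, 84 and 51. The most counted markers were *Pdgfra*, with 2354, 2845 and 2718 and also a marker of primitive endoderm, and *Pdgfrb*, with 204, 300 and 257. All 12 together had 3251, 3439 and 3219 counts, a summed level of 34.8, 30.3 and 28.8. *Krt19*, a keratin that the luminal layer held at 8537, 57150 and 9081 counts, had 1401, 241 and 108. Of the 10 epithelial markers, *Krt19* was the only 1 called in blastocyst *Lif* eKO against control. With rLif against control *Cldn3* (3144, 2756 and 1499) was called lower too. Other epithelial markers did not follow, with *Epcam* at 22316, 23563 and 27388 and *Cdh1* at 18684, 22279 and 18948. The part of maternal RNA in the counts of *Lef1*, *Fzd2* and *Rspo3* was not tested.

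Among the other blastocyst receptors, *Fzd6* had 11, 60 and 24 counts, 5.32-fold higher in *Lif* eKO than in control (log2 2.41, interval 1.47 to 3.49). In rLif against *Lif* eKO its log2 ratio was -1.31 (interval -2.06 to -0.61), not called. *Fzd10* had 2, 13 and 20, with a log2 ratio of 3.29 (interval 1.25 to 6.44) for rLif against control. *Fzd5*, the highest Frizzled in all 3 libraries, had 542, 588 and 969 counts, at 0.81 (interval 0.66 to 0.96) with rLif against control. *Fzd7* had 242, 297 and 141, *Fzd3* had 246, 193 and 241, *Fzd8* had 97, 108 and 69, *Fzd9* had 72, 33 and 72, and *Fzd1* had 27, 8 and 24. *Fzd5* made up 33.5%, 36.5% and 52.9% of a summed Frizzled level of 12.3, 11.9 and 13.6.

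The remaining blastocyst members were not called in any comparison. *Lrp6* had 787, 1026 and 777 counts and *Lrp5* had 482, 448 and 434. *Lgr4*, the only Lgr gene that reached 10 summed counts there, had 714, 775 and 606. *Znrf3* had 414, 359 and 371, *Rnf43* had 5, 7 and 0, and *Rspo1* had 54, 52 and 38. *Sfrp1* had 858, 1144 and 1049 counts, with a log2 ratio of 0.38 (interval 0.25 to 0.51) for *Lif* eKO against control, where the luminal ratio was -4.41. *Dkk1* was at -0.055 (interval -0.22 to 0.11) in the same comparison.

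**Figure D4:**
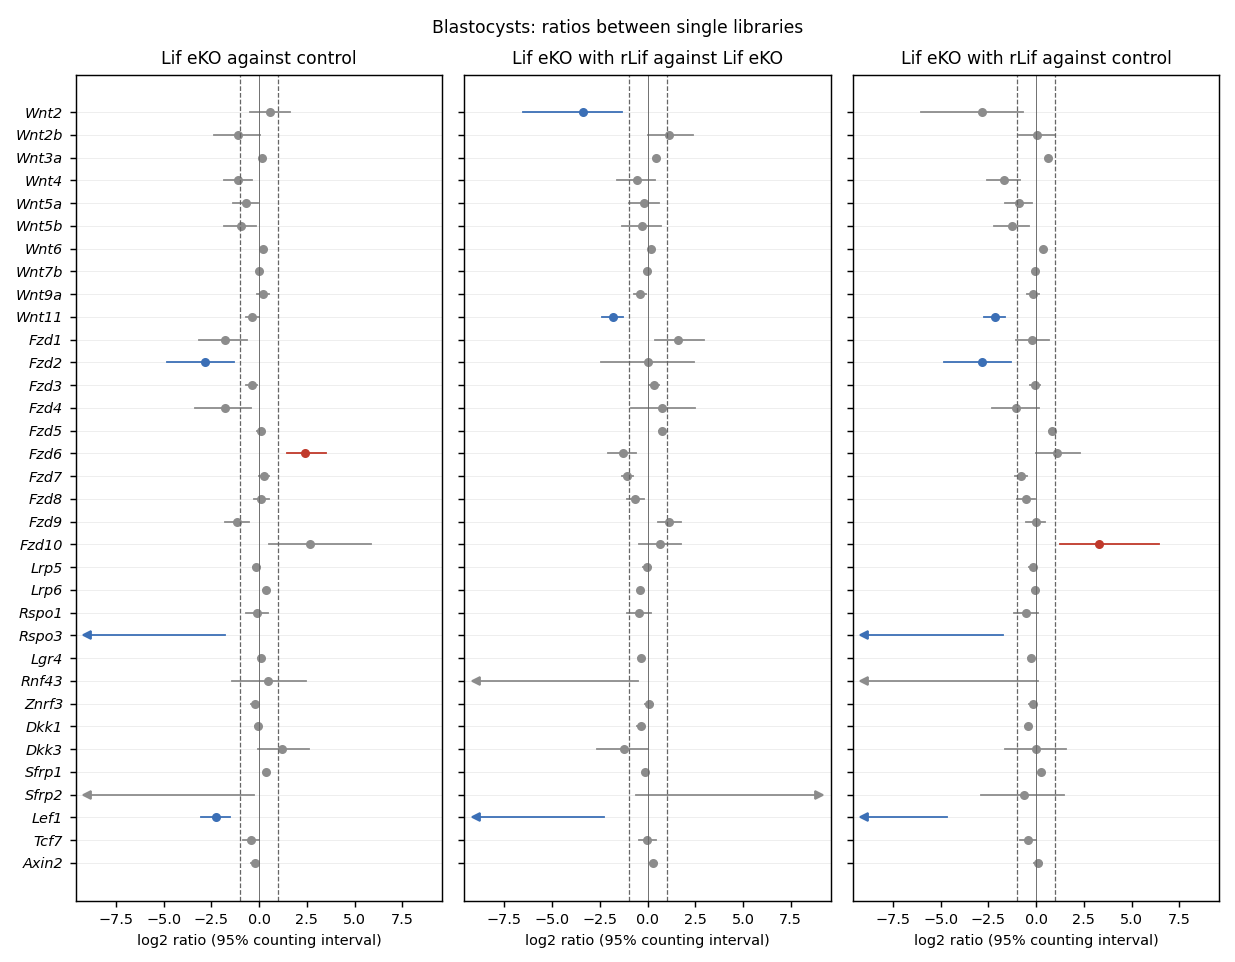
Log2 ratios between blastocyst libraries for the 34 genes tested, 1 panel for each comparison, with exact 95% counting intervals as horizontal lines, dashed lines at log2 ratios of -1 and 1, red for called higher, blue for called lower and gray for not called, and arrows where a count of 0 leaves an interval without an end. *Wnt7b* stands at -0.022, -0.035 and -0.057 in the 3 panels, and the called genes *Lef1*, *Fzd2*, *Rspo3*, *Fzd6*, *Fzd10*, *Wnt2* and *Wnt11* have wide intervals.

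In the 4 pathway lists, none of the 10 secretion genes or 25 cytoplasmic and nuclear genes tested in the blastocysts was called in *Lif* eKO against control, where 1.29% of all genes were called higher and 1.86% lower. *Prickle2*, a polarity gene, had 10, 43 and 19 counts and was called higher (log2 2.07, interval 1.05 to 3.23). *Ascl2*, a transcription factor of trophoblast and of intestinal stem cells, had 335, 53 and 15 counts and was called lower in *Lif* eKO (log2 -2.70, interval -3.14 to -2.27) and with rLif against control (log2 -4.51, interval -5.36 to -3.77). Of the feedback genes, *Notum* had 29, 20 and 4 counts and was called lower with rLif against control (log2 -2.89, interval -4.85 to -1.38). *Nkd1*, an intracellular feedback inhibitor, had 24, 12 and 0, called lower with rLif against both others, with intervals that ended at -1.47 against *Lif* eKO and -2.62 against control. Only 1 target gene was called higher in a blastocyst comparison, *Prox1* with 2, 0 and 10 counts, for rLif against *Lif* eKO. The corepressor *Tle2* had 9, 20 and 1 and was called lower in that comparison (log2 -4.31, interval -9.69 to -1.67). *Nkd1* and *Prox1* were named after their values were seen. *Wls* had 712, 1259 and 452 counts and was lower with rLif than in *Lif* eKO (log2 -1.47, interval -1.63 to -1.31). Like *Wls* and *Fzd6*, the summed immune level was highest in the *Lif* eKO blastocysts, at 63.3, 115 and 22.9. *Lyz2*, the most counted immune marker, had 976, 2128 and 289 counts. *Cd74* (286, 175 and 131) and *Cd3e* (26, 4 and 14) were instead highest in control. Of the 7 immune markers, none was called higher and 1 lower (*Cd3e*) in *Lif* eKO against control. With rLif against *Lif* eKO 3 were called lower, *Lyz2* among them. Over all genes 1.86% and 2.83% were called lower in these comparisons. The part of immune cells was not tested. *Tpbg*, a membrane protein that dampens Wnt signaling, had 413, 744 and 957 counts and was higher with rLif than in control (log2 1.18), while *Gpc3*, a glypican, had 81, 31 and 8 and was lower (log2 -3.37). *Ascl2* and *Gpc3* were highest in control and lowest with rLif, the order also seen for *Lef1*, *Nkd1*, *Notum* and the summed stromal level. The trophectoderm marker *Elf5* had this order too, with 1988, 1311 and 902 blastocyst counts and 75, 76 and 5 luminal ones. It was the only 1 of 6 trophectoderm markers called with rLif against control, where 3.99% of all genes were called lower. The part of maternal RNA and of embryonic cell types in these genes was not tested.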

How the data were processed

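RNA from the microdissected luminal layer and from blastocysts was made into SMART-seq v4 libraries. The authors aligned the reads to GRCm38/mm10 with HISAT2 and deposited whole-number counts per gene from featureCounts in Subread 2.0.0 (the submitters' processing notes and methods). The methods call this output RPKM, but the deposited values are counts. Neither the gene annotation used nor the handling of strand and of multiply mapped reads was stated. Levels used the deposited exon lengths.

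Groups followed the sample labels. Genes reaching 10 counts across a tissue's 3 libraries were TMM-scaled in edgeR 4.0.16 (R 4.3.3), and Clopper-Pearson 95% intervals of count ratios came from scipy 1.17.1. Gene calls and the 3-count floor follow the report. The scripts were tested on simulated data. Counts in all 3 libraries are printed for members with at least 50 summed counts or a call. Other pathway genes are named where called in luminal *Lif* eKO against control or in blastocysts, at most 6 per list by summed count. The members and lists were chosen with earlier results of these data known. Alternatives were other scalings, minimum counts and limits, exon-length TPM levels, and the edgeR exact test at an assumed dispersion of 0.1.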

Additional observations from a re-analysis of the deposited data

Results flagged for a closer look

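*Fzd10* was called in opposite directions in the 2 tissues for *Lif* eKO with rLif against control. The log2 ratio was -2.94 in the luminal layer, from 14 and 104 counts, and 3.29 in the blastocysts, from 20 and 2 counts. The difference between the tissues was not tested, since each group is 1 library.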

How the results depend on the processing

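The comparisons are given here as luminal *Lif* eKO against control, rLif against *Lif* eKO and rLif against control, then the same 3 in blastocysts. With intervals only required to exclude a log2 ratio of 0, called members numbered 32, 30 and 29, then 21, 19 and 19. Beyond a log2 ratio of 2 they numbered 6, 5 and 3, then 0, 1 and 1. The shares of all genes called at these other limits, by the exact test or with at least 50 summed counts were not worked out. None of the member counts in this section can therefore be set beside those of other genes. The edgeR exact test at an assumed dispersion of 0.1, which has no replicates behind it, passed 8, 6 and 3 luminal members, then 0, 0 and 1 in blastocysts (*Lef1*, rLif against control). The luminal calls lost were *Lgr4*, *Wnt5b* and *Wnt10a* in the first comparison, *Lgr4*, *Wnt5b*, *Lgr6* and *Fzd10* in the next, and *Rnf43*, *Fzd9* and *Sfrp4* in the last. With at least 50 summed counts, 2 blastocyst members were called in *Lif* eKO against control and 2 in rLif against control. Of 412 single-gene ratios under other scalings, 409 kept their status as called or not called, and no called ratio reversed. The direction of ratios that were not called was not checked, and those near 0 may have changed sign. With library totals alone, *Rspo1* became lower with rLif against *Lif* eKO (log2 -1.64), *Dkk2* became lower with rLif against control (log2 -1.38), and *Rnf43* lost its call (log2 1.19). No paired analysis was possible because each group is 1 library.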
